A study of Mus musculus with 4 samples.

Results

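Genes of fatty acid oxidation and ketone body metabolism were examined in mouse liver with and without the Cyp3a cluster, a group of cytochrome P450 genes whose enzymes oxidise many drugs and steroids. The set holds 35 genes of the carnitine shuttle, the mitochondrial and peroxisomal beta oxidation pathways, acyl-CoA thioester hydrolysis and ketone body formation. The set was chosen by name, with earlier results of these data known. It was read from all 46 non-control probes whose RefSeq accession matched 1 of these genes, out of 39429 probes on the array. All 35 genes passed the filter on dim probes, with 45 of their 46 probes, among 17403 genes or other features that were tested. The study compared livers of 2 wild type mice with livers of 2 Cyp3a-/- mice (a knockout of the whole cluster), with 1 one-colour array of Cy3-labelled cRNA per liver. Different animals were used in independent experiments, per the design text. The sources used here give no strain, sex, age, diet or treatment of the mice, and the labels name no further allele or agent. Livers are called wild type 1, wild type 2, Cyp3a-/- 1 and Cyp3a-/- 2 by the replicate numbers of the labels.

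Fatty acids reach the mitochondrial matrix as carnitine esters and are shortened there by rounds of dehydrogenation, hydration, a second dehydrogenation and thiolysis. Peroxisomes run a parallel pathway for very long chains and other substrates that mitochondria handle poorly. In liver, much of the acetyl-CoA formed in fasting leaves as ketone bodies, and the nuclear receptor PPARA is the best known activator of many of these genes.

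The share of probes well above background was 54.4% to 56.4% per array, 0 spots were saturated, and arrays correlated at 0.977 to 0.992 over all features. Cyp3a11, the main Cyp3a transcript of mouse liver, lay at 7.94 and 8.09 in the wild type livers and at -6.98 and -6.93 in the Cyp3a-/- livers, in which its probe was not well above background. Every value of this kind is a signal, that is, log2 of the processed intensity scaled to the 75th percentile of its own array. Both wild type arrays came from scan 1, Cyp3a-/- 1 from scan 2 and Cyp3a-/- 2 from scan 3, so scan and genotype cannot be told apart. All 6 hepatocyte markers on the array were well above background in each liver, and their summed linear signal relative to the 75th percentile ranged from 2470 to 2800 in wild type and from 2390 to 2830 in Cyp3a-/- liver. Of 7 adipocyte markers, Adipoq, Lep, Plin1 and Retn were not well above background in any liver, and Fabp4, Cfd and Cidec were so in each. Of brown fat markers, Ucp1 and Cidea were not in any liver, and Elovl3 and Cox7a1 were in each. Ckm, Mb, Myh4 and Tnnt3 of muscle were not in any. Of 6 muscle markers, 2 were well above background in wild type 2 and 1 in each other liver. In bulk tissue, fewer cells of a type and less RNA per cell cannot be told apart.

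Fatty acid oxidation genes were mostly a little lower in Cyp3a-/- liver, but no member passed the test. The median difference of the set, though not that of every member, rested on a single wild type liver. Because the set was chosen with earlier results known, its shares beside those of all features are descriptions only. Of the 35 genes, 31 had a log2 fold change (Cyp3a-/- minus wild type) below 0, against 48.5% of all features. Their median was -0.20, beside 0.01 over all features, with members between -0.79 for Acot3 and 0.34 for Echs1. None passed limma's test at an adjusted p under 0.05 (0 of 35; 0.276% of all 17403 features passed). The smallest adjusted p was 0.494, for Pex11a. At an unadjusted p under 0.05 there were 2 members, both lower, Pex11a and Hadha (5.71% of members, where 5.42% of all features were lower at that p and 10.0% differed in either direction). In 11 members both Cyp3a-/- livers lay below both wild type livers (31.4%, beside 20.2% of all features), and in 2 members, Echs1 and Etfa, both lay above (5.71%, beside 22.6%). With 2 livers per genotype an exact permutation test of a single gene cannot go below a 2-sided p of 0.333.

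Wild type 2 stood apart from the other livers. It was the highest liver for 28 of the 35 members (80.0%), where it was highest for 24.1% of all features, while wild type 1 was highest for 1 member (21.7% of features), Cyp3a-/- 1 for 1 (27.6%) and Cyp3a-/- 2 for 5 (26.5%). Relative to the mean of the 4 livers, the median member lay at 0.20 in wild type 2, at -0.08 in wild type 1, at -0.10 in Cyp3a-/- 1 and at -0.07 in Cyp3a-/- 2. A single high liver raises this mean and so places the others below it. Wild type 1 was above both Cyp3a-/- livers for 11 members (31.4%, beside 32.7% of all features) and below both for 14 (40.0%, beside 35.3%). It lay between them for 10 (28.6%, beside 31.9%). These shares were near those of all features. Wild type 2 was above both Cyp3a-/- livers for 29 members (82.9%, beside 33.3% of all features). Without wild type 2 the median log2 fold change of the members was -0.03 with 19 of 35 below 0, and without wild type 1 it was -0.30 with 32 below 0. Some members stayed lower without wild type 2, among them Decr2 (-0.63), Hadha (-0.39) and Cpt1a (-0.34). Over scalings, wild type 2 was highest for 28 members with normexp background correction, 30 with quantile normalization and 28 with scaling to the array median. With quantile normalization the median member lay at -0.01 in wild type 1 and at 0.29 in wild type 2. In Cyp3a-/- 1 and 2 it lay at -0.13 and -0.17, below both wild type livers. Scaling to the array median gave -0.14 and 0.23 in wild type and -0.17 and 0.04 in Cyp3a-/- liver. Both wild type arrays came from the same scan, so their difference holds no difference between scans. Of the markers of other cells, those of cholangiocytes had their highest sum in wild type 2 (1.48) and their lowest in wild type 1 (0.864), with 1.02 to 1.18 in Cyp3a-/- liver, 4 of 5 above background in each liver and Epcam in none. Kupffer cell or macrophage markers, 6 of 6 above background in each liver, summed to 42.6 and 44.3 in wild type 1 and 2 and to 33.2 and 37.9 in Cyp3a-/- 1 and 2. Among them Marco, a scavenger receptor, differed by -1.47 ± 0.30 (limma unadjusted p = 0.00351, adjusted p = 0.246). Clec4f (-0.32) and Cd5l (-0.25) were also lower without overlap, but by less. Vsig4 was higher without overlap (0.16), and Adgre1 stood at -0.04 and Timd4 at 0.03. So 3 of the 6 were lower and 1 higher without overlap (20.2% and 22.6% of all features). Brown adipocyte markers, with 2 of 4 above background in each liver, summed highest in wild type 2 (39.4, beside 33.6 to 37.1 in the others). Of these 2, Cox7a1 differed by -0.88 ± 0.20 (limma adjusted p = 0.274), and the brighter Elovl3 by -0.07 ± 0.18. Erythroid markers summed to 91.6 and 107 in wild type 1 and 2 and to 46.5 and 75 in Cyp3a-/- 1 and 2. Pancreatic markers summed to 3.02 and 3.43 in wild type and to 2.28 and 0.538 in Cyp3a-/- liver, with Cpa1 and Prss2 not above background in any. Other lists were not highest in wild type 2. Sums in wild type 1, wild type 2, Cyp3a-/- 1 and Cyp3a-/- 2 were 36.4, 27.7, 32.4 and 29.6 for sinusoidal endothelium. In that order they were 1.38, 0.85, 0.997 and 0.949 for neutrophils, and 1.89, 1.75, 1.88 and 2.14 for adipocytes. Those of stellate cells (42.5, 38.7, 35.5 and 38.4) and lymphocytes (4.13, 3.14, 3.92 and 3.04) were highest in wild type 1. The part of these cells in the members' values was not tested.

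**Figure D1:**
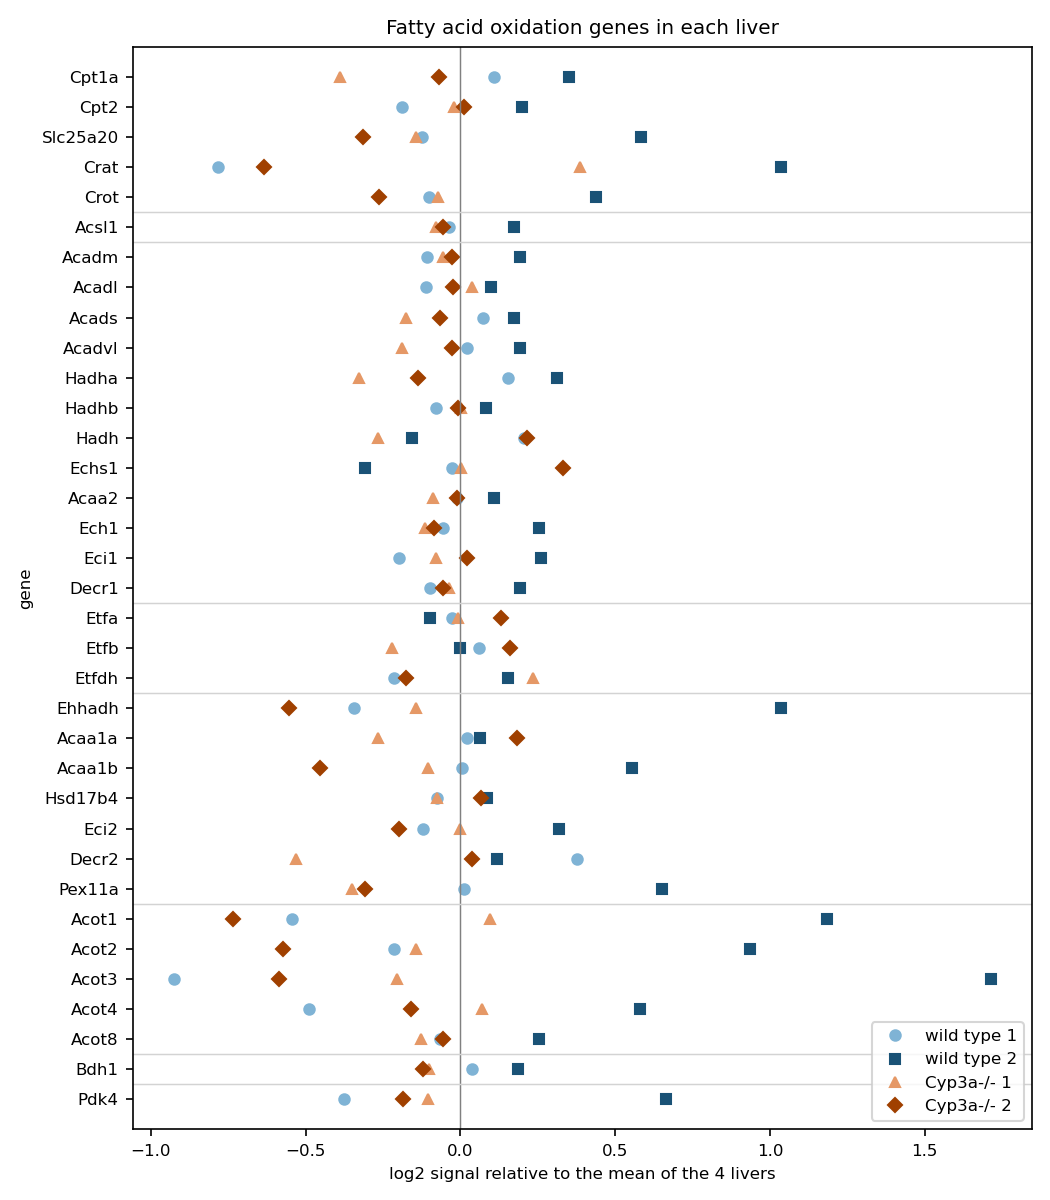
Log2 signal of each of the 35 genes in each liver, relative to the mean of the 4 livers (horizontal axis, log2; 1 point per liver, genes grouped by role and separated by grey lines). Wild type 2 (dark squares) is the highest point for 28 genes and lies furthest out for Acot3. Wild type 1 lies above both Cyp3a-/- points for 11 genes, below both for 14 and between them for 10.

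The carnitine shuttle carries acyl groups into mitochondria, and all 5 of its measured genes were highest in wild type 2. Cpt1a, the carnitine palmitoyltransferase of the outer membrane and the main control point of mitochondrial oxidation, lay at 4.0 and 4.24 in the wild type livers and at 3.50 and 3.82 in the Cyp3a-/- livers. The genotypes did not overlap, and the log2 fold change was -0.46 ± 0.21 (limma's moderated SE, n = 2 per genotype, limma adjusted p = 0.551). Every ± value here is such an error, which draws on the spread over all features as well as on that of the gene. Its dimmer probe gave 0.21 and 0.59 against -0.14 and -0.04, a difference of -0.49. Slc25a20, the carrier that exchanges acylcarnitine for carnitine across the inner membrane, stood at 1.43 and 2.14 in wild type and 1.41 and 1.24 in Cyp3a-/- liver (-0.46 ± 0.28, adjusted p = 0.628). Wild type 1 was only just above Cyp3a-/- 1 here, and the separation came from wild type 2. Crot, the peroxisomal carnitine octanoyltransferase, had 5.61 and 6.15 in wild type and 5.64 and 5.45 in Cyp3a-/- liver (-0.33 ± 0.24, adjusted p = 0.681), with wild type 1 between the Cyp3a-/- values. Crat, the carnitine acetyltransferase, varied more within each genotype than between them: -3.35 and -1.53 in wild type, -2.18 and -3.20 in Cyp3a-/- liver. Cpt2, the transferase of the inner membrane, differed by -0.01 ± 0.21 between genotypes, with a 95% confidence interval from -0.53 to 0.51. Acsl1, the main long-chain acyl-CoA synthetase of liver, which activates fatty acids before the shuttle, stood at 7.07 and 7.28 against 7.03 and 7.05 by its brighter probe (-0.13 ± 0.18). Its dimmer probe read 4.34 and 4.95 against 4.02 and 3.92, a difference of -0.67 ± 0.25 (adjusted p over all probes 0.470), so the 2 probes gave the same direction at different sizes.

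Genes of the mitochondrial spiral, which shortens the chain, differed little between genotypes. Over these 12 genes the median log2 fold change was -0.09, 10 were below 0 and 10 were highest in wild type 2, at a median of 0.17 above wild type 1. Hadha, the alpha subunit of the mitochondrial trifunctional protein, had 2.27 and 2.43 in the wild type livers and 1.79 and 1.98 in the Cyp3a-/- livers. The genotypes lay apart, by -0.47 ± 0.18 (0.724-fold; unadjusted p = 0.0485, adjusted p = 0.498). Hadhb, the beta subunit of the same complex, read 5.07 and 5.23 against 5.15 and 5.14 (-0.01 ± 0.18, 95% confidence interval -0.45 to 0.44). The difference between the 2 subunits was not tested. Echs1, the short-chain enoyl-CoA hydratase, was the member with the largest positive value: 5.25 and 4.97 in wild type and 5.28 and 5.61 in Cyp3a-/- liver (0.34 ± 0.21, adjusted p = 0.642). It was also 1 of the 2 members that were lowest in wild type 2. Hadh, the short-chain hydroxyacyl-CoA dehydrogenase, had 5.10 and 4.74 in wild type and 4.63 and 5.11 in Cyp3a-/- liver, with overlapping genotypes.

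The acyl-CoA dehydrogenases, which start each round for chains of different length, showed small differences. Acadvl, for very long chains, had 7.05 and 7.22 against 6.84 and 7.0, and Acads, for short chains, 2.15 and 2.25 against 1.90 and 2.01. Both lay apart by genotype, with log2 fold changes of -0.21 and -0.24 (adjusted p = 0.728 and 0.678). Acadm, for medium chains, read 5.35 and 5.65 against 5.40 and 5.43, and Acadl, for long chains, 2.33 and 2.54 against 2.48 and 2.42. In both, the Cyp3a-/- livers lay between the wild type livers. Among the auxiliary enzymes for unsaturated fatty acids, Ech1 stood at 4.66 and 4.97 against 4.60 and 4.63 (-0.21 ± 0.19). Eci1, an enoyl-CoA isomerase, had 5.06 and 5.52 against 5.18 and 5.28, and Decr1, the mitochondrial dienoyl-CoA reductase, 6.60 and 6.89 against 6.66 and 6.64. Acaa2, the mitochondrial thiolase, gave 8.30 and 8.42 against 8.22 and 8.30.

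Electron transfer from the dehydrogenases to the respiratory chain runs through the flavoprotein ETF and its dehydrogenase. These 3 genes were the exception to the pattern of wild type 2, which was highest for 0 of them. Etfa, the alpha subunit, had 6.22 and 6.15 in wild type and 6.24 and 6.38 in Cyp3a-/- liver (0.12 ± 0.18). Etfb, the beta subunit, had 7.44 and 7.38 against 7.16 and 7.54, and Etfdh 5.07 and 5.44 against 5.52 and 5.11. Dimmer probes differed in this. Wild type 2 was highest by the second Etfa probe, at 2.47 and 2.92 against 2.81 and 2.75, and by the dimmest Etfb probe, at 0.56 and 0.92 against 0.70 and 0.67. The remaining Etfb probe, at 5.81 and 5.86 against 5.48 and 5.94, was highest in Cyp3a-/- 2, as was the brightest.

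All 7 peroxisomal genes had a log2 fold change below 0, with a median of -0.50, and 5 of them were highest in wild type 2. Ehhadh, the bifunctional enzyme of the inducible peroxisomal pathway, was at 4.15 and 5.53 in wild type and at 4.35 and 3.94 in Cyp3a-/- liver. Wild type 2 stood 1.38 above wild type 1, which lay between the Cyp3a-/- livers, and the genotype difference of -0.69 ± 0.46 did not pass (adjusted p = 0.660); without wild type 2 it was 0.00, and without wild type 1 -1.38. Pex11a, a membrane protein of peroxisome division, had 4.65 and 5.29 against 4.29 and 4.33. Its genotypes lay apart, by -0.65 ± 0.26 (0.636-fold; unadjusted p = 0.0476, adjusted p = 0.494). Without wild type 2 the difference was -0.33 and without wild type 1 -0.97. Acaa1b, a peroxisomal thiolase, read 6.41 and 6.96 in wild type and 6.30 and 5.95 in Cyp3a-/- liver (-0.56 ± 0.26, adjusted p = 0.560). Its close paralog Acaa1a read 6.82 and 6.86 against 6.53 and 6.98 (-0.09 ± 0.22). Probes of such close copies can share targets, so the values are uncertain as those of single genes. Decr2, the peroxisomal dienoyl-CoA reductase, departed from the pattern, with 4.83 and 4.57 in wild type and 3.92 and 4.49 in Cyp3a-/- liver. It was the member that was highest in wild type 1, and its genotypes lay apart by -0.50 ± 0.26 (adjusted p = 0.586). Hsd17b4, the bifunctional enzyme that handles branched and very long chains, differed by -0.01 ± 0.18, with 6.35 and 6.51 against 6.35 and 6.49. Eci2, an enoyl-CoA isomerase of peroxisomes, stood at 5.98 and 6.42 against 6.10 and 5.90.

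The acyl-CoA thioesterases, which release free fatty acids from acyl-CoA, differed most between the wild type livers, by a median of 1.15 over 5 genes, all highest in wild type 2. Acot3 lay at -2.38 in wild type 1 and 0.26 in wild type 2, a gap of 2.63, and at -1.66 and -2.04 in the Cyp3a-/- livers. Its log2 fold change of -0.79 was the largest of the set in size, yet its error was 0.82 and the 95% confidence interval ran from -2.83 to 1.25 (adjusted p = 0.769). The second Acot3 probe, well above background in wild type 2 and Cyp3a-/- 1 alone, gave the same order of the wild type livers (-4.94 and -2.52). Acot1 had 3.21 and 4.94 in wild type and 3.85 and 3.02 in Cyp3a-/- liver (-0.64 ± 0.60, adjusted p = 0.748). Acot2 stood at -3.88 and -2.73 against -3.81 and -4.24 (-0.72 ± 0.41, adjusted p = 0.612). Its signal in Cyp3a-/- 2 was the lowest of the set, and with normexp background correction its difference was only -0.19. For Acot4 the values were -0.42 and 0.65 in wild type and 0.14 and -0.09 in Cyp3a-/- liver. In all 4, wild type 2 was the highest liver and wild type 1 lay among or below the Cyp3a-/- livers. These 4 genes lie in a cluster on chromosome 12 and are close relatives, so their probes may read more than 1 of them. Acot8, a peroxisomal thioesterase encoded elsewhere, varied less, at 2.36 and 2.68 against 2.30 and 2.37.

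The starts of a few genes are shown because wild type 2 stood highest for all of them and PPARA is known to bind repeats of the half-site AGGTCA. Each sequence covers the 250 bases before the start, 5′ to 3′ on the gene's strand, from RefSeq with GRCm38.p6 coordinates, and capitals mark AGGTCA on either strand (as TGACCT on the opposite one).
Acot1, chr12:84009252-84009501, plus strand: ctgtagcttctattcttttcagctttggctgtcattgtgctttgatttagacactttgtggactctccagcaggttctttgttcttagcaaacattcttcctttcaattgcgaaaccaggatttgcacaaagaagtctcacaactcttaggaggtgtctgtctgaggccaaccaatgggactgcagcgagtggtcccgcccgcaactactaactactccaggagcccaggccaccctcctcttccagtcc
Acot3, chr12:84051894-84052143, plus strand: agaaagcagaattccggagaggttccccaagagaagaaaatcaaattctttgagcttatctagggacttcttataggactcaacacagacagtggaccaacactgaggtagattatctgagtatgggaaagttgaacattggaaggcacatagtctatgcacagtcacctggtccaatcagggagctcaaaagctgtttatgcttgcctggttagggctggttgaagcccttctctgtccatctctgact
Acot4, chr12:84038129-84038378, plus strand: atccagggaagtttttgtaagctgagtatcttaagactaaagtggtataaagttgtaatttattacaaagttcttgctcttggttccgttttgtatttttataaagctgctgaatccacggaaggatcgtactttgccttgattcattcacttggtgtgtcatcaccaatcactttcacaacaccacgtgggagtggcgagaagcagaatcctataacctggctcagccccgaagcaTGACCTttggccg
Ehhadh, chr16:21787835-21788084, minus strand: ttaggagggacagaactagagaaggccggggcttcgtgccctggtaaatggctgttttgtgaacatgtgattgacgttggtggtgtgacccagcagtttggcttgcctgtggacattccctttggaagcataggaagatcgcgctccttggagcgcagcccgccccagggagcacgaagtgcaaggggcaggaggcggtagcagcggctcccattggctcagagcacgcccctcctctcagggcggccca
Cpt1a, chr19:3323051-3323300, plus strand: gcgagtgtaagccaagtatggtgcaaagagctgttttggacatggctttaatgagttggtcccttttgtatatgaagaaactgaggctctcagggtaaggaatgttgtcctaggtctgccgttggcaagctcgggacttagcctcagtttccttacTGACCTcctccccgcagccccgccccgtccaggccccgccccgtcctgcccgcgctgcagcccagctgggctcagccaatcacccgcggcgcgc
Promoters were found for 31 of the 35 members, with 34 starts in all, and none was listed for Acaa2, Crat, Decr1 and Hsd17b4. The half-site was present before 5 of the 34 starts, those of Acadm, Acadvl, Acot4, Cpt1a and Echs1, and before 14.0% of all 32851 starts in the table. The direct repeat AGGTCANAGGTCA, searched on both strands, was found before 0 of the 34 and before 0.033% of all starts. The genes with a half-site included Acot4, whose wild type livers were 1.07 apart, and Echs1, which was lowest in wild type 2. Absence of these letters says nothing about the receptor, since only this window was searched.

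Bdh1, which interconverts the ketone bodies acetoacetate and 3-hydroxybutyrate, was slightly lower in Cyp3a-/- liver. Its brightest probe read 5.41 and 5.56 in wild type and 5.27 and 5.25 in Cyp3a-/- liver (-0.22 ± 0.18, adjusted p = 0.703), without overlap. Its other probes, at 4.25 and 4.52 against 4.26 and 4.19 and at 0.20 and 0.75 against 0.46 and 0.21, did overlap. Pdk4, the kinase that shuts pyruvate dehydrogenase when fat is burned, had -0.40 in wild type 1 and 0.64 in wild type 2, and -0.13 and -0.21 in the Cyp3a-/- livers (-0.29 ± 0.36, adjusted p = 0.812). Wild type 1 was here the lowest of the 4 livers.

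**Figure D2:**
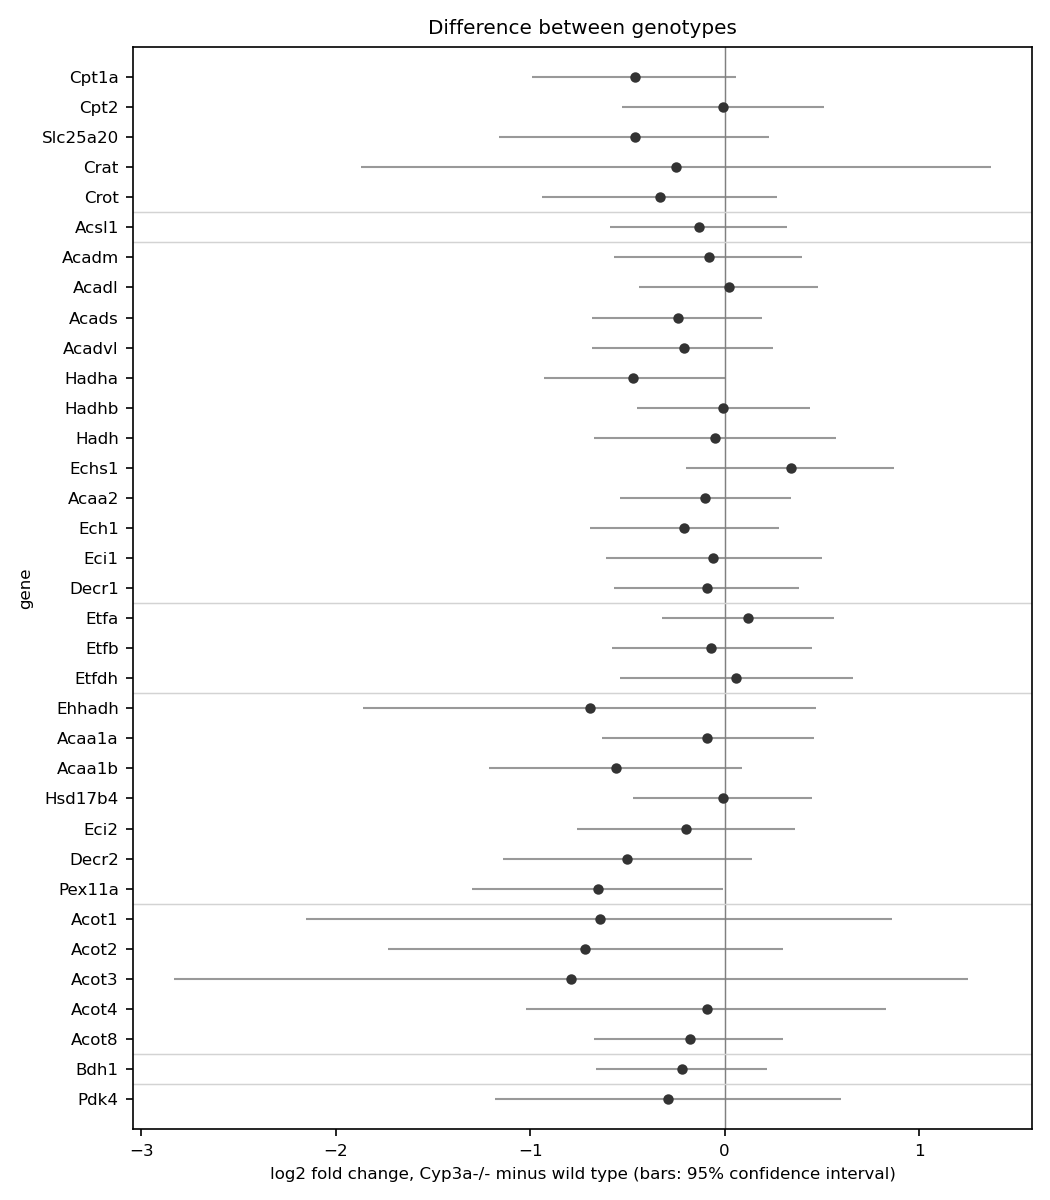
Log2 fold change of each gene, Cyp3a-/- minus wild type, with its 95% confidence interval from limma (2 livers per genotype; horizontal axis in log2 units; grey lines separate roles). The intervals are narrow for Hadhb (-0.45 to 0.44) and wide for Acot3 (-2.83 to 1.25), and 31 of 35 points lie below 0.

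The precision differed between members. The half-width of the 95% confidence interval was between 0.44 and 2.04 on the log2 scale, with a median of 0.54, and for 24 of the 35 genes the interval lay within a log2 change of 1 in either direction. Wild type livers were further apart than Cyp3a-/- livers for 25 members (71.4%, beside 43.4% of all features). For 23 members the gap between the wild type livers exceeded the difference between genotypes (65.7%, beside 48.8%). A gap of at least 0.5 between the wild type livers was found for 11 members, beside 13.8% of all features. In all 11 of these members (31.4%) wild type 2 was the higher, beside 5.24% of all features with wild type 2 higher by that much. They were Slc25a20, Crat, Crot, Ehhadh, Acaa1b, Pex11a, Acot1, Acot2, Acot3, Acot4 and Pdk4.

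Most members with a gap of at least 0.5 between the wild type livers were higher in Cyp3a-/- 1 than in Cyp3a-/- 2, several by little. This held for 10 of the 11 members named above, with Pex11a as the exception at a difference of 0.04. It held for 6 of the other 24, and the share of all features was not counted. Among the 11 the gaps were largest for Crat (1.02), Acot1 (0.83), Acot2 (0.43) and Ehhadh (0.42), and smaller for Crot (0.19), Slc25a20 (0.17) and Pdk4 (0.08). Over all 35 members, 3 had Cyp3a-/- livers at least 0.5 apart: Crat, Acot1 and Decr2. For Decr2 the direction was opposite, with Cyp3a-/- 2 higher by 0.57. Across the 35 genes, the difference wild type 2 minus wild type 1 and the difference Cyp3a-/- 2 minus Cyp3a-/- 1 correlated at -0.81, beside -0.10 over all features. This is a description across genes, which are not independent replicates, and all points share the same 4 arrays and their scaling.

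**Figure D3:**
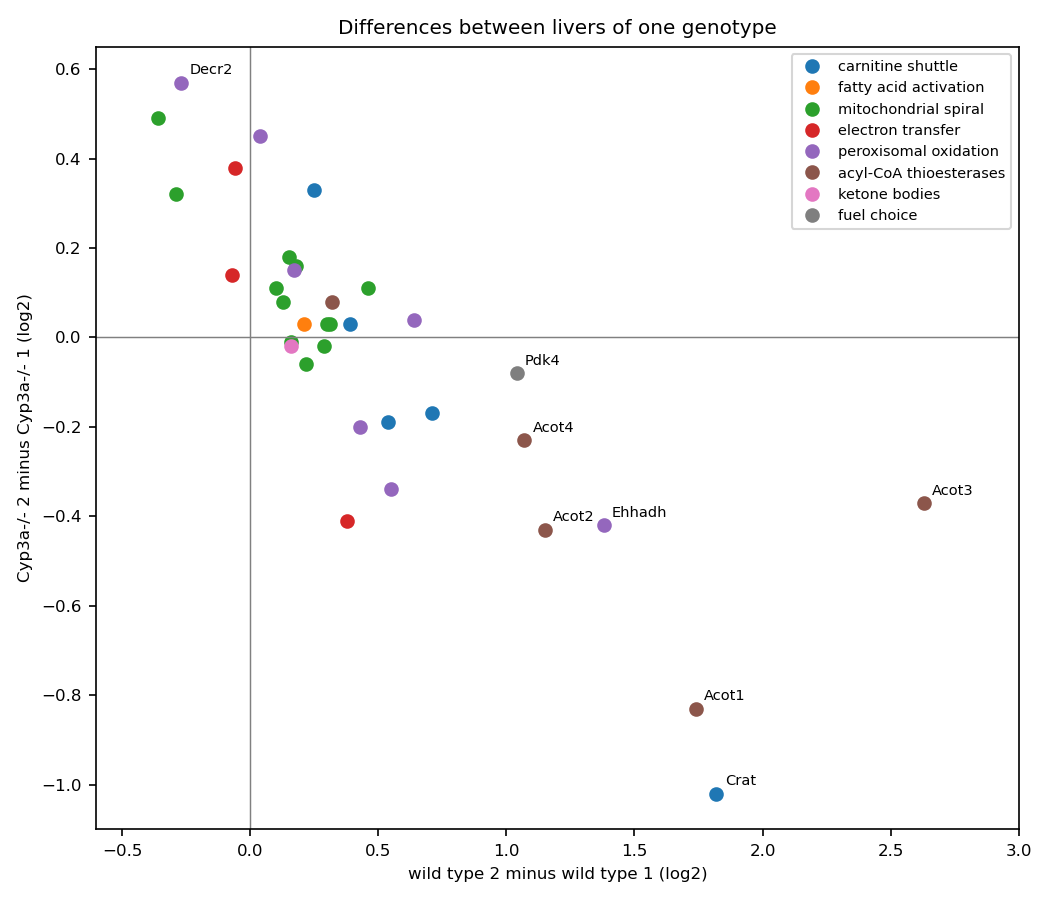
Difference between the wild type livers (horizontal axis) and between the Cyp3a-/- livers (vertical axis), both replicate 2 minus replicate 1 in log2 units, 1 point per gene and 1 colour per role. Genes far to the right, such as Acot1 and Crat, lie low, and Decr2 lies at the upper left.

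Of the 35 members, 8 had more than 1 probe well above background, and no member had probes of opposite direction. Of the 45 kept probes, 37 were highest in wild type 2 and 40 had a log2 fold change below 0.

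Other genes of the same pathways were highest in wild type 2 in smaller shares. Of all features, 24.1% were highest in wild type 2. At limma's unadjusted p under 0.05, 4.60% of all features were higher and 5.42% lower in Cyp3a-/- liver. Among 7 further ketone body genes, 0 passed limma's threshold (0 also at an unadjusted p of 0.05), the median log2 fold change was 0.16, and 2 were highest in wild type 2. Oxct1, which activates ketone bodies for use, stood at 0.40 ± 0.21, and Aacs, which activates acetoacetate in the cytosol, at -0.72 ± 0.39. Of 20 further peroxisomal genes 0 passed (1 higher at an unadjusted p under 0.05), with a median of -0.09 and 9 highest in wild type 2. The genes with the smallest p in that list were higher in Cyp3a-/- liver: Nudt19, a CoA hydrolase, at 0.59 ± 0.24, Abcd2, a peroxisomal fatty acid transporter above background in 1 of the 2 wild type livers, at 1.48 ± 0.60, and Phyh, which starts alpha oxidation, at 0.23 ± 0.17. Of 22 further mitochondrial genes 0 passed (2 higher at an unadjusted p under 0.05), with a median of 0.02 and 8 highest in wild type 2. They were led by the acyl-CoA synthetase gene Acsl3 at 0.67 ± 0.17, the acyl-CoA dehydrogenase gene Acad10 at 0.57 ± 0.20 and the epimerase gene Mcee at 0.51 ± 0.22, with adjusted p between 0.320 and 0.531.

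Among 30 regulators and PPARA-responsive genes, 0 passed limma's threshold, 10 were lower and 1 higher at an unadjusted p under 0.05 (5.42% and 4.60% of all features), and their median was -0.15. Both Cyp3a-/- livers lay below both wild type livers for 12 of the 30 (20.2% of all features), and 16 were highest in wild type 2 (24.1% of all features). The further lists, this one included, were also chosen with earlier results of these data known. Ppara itself was at 4.59 and 4.64 in wild type and at 3.91 and 4.14 in Cyp3a-/- liver (-0.59 ± 0.18, adjusted p = 0.389). Its wild type livers differed by 0.05, unlike those of Ehhadh or Acot1. Cd36, a fatty acid uptake receptor, stood at -0.38 and -0.19 against -1.49 and -1.89 (-1.41 ± 0.21, adjusted p = 0.137), and Vnn1, a pantetheinase, at 1.46 and 2.28 against 0.53 and -0.10 (-1.66 ± 0.35, adjusted p = 0.254). Fgf21, a liver hormone of fasting, was at -3.90 and -0.62 in wild type and below the background limit in both Cyp3a-/- livers, at least 5.81-fold lower (adjusted p = 0.253). The bound sets the mean of the wild type livers against the Cyp3a-/- mean of each array's dimmest detected probe, or of the probe's own signal where that was higher.

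**Figure D4:**
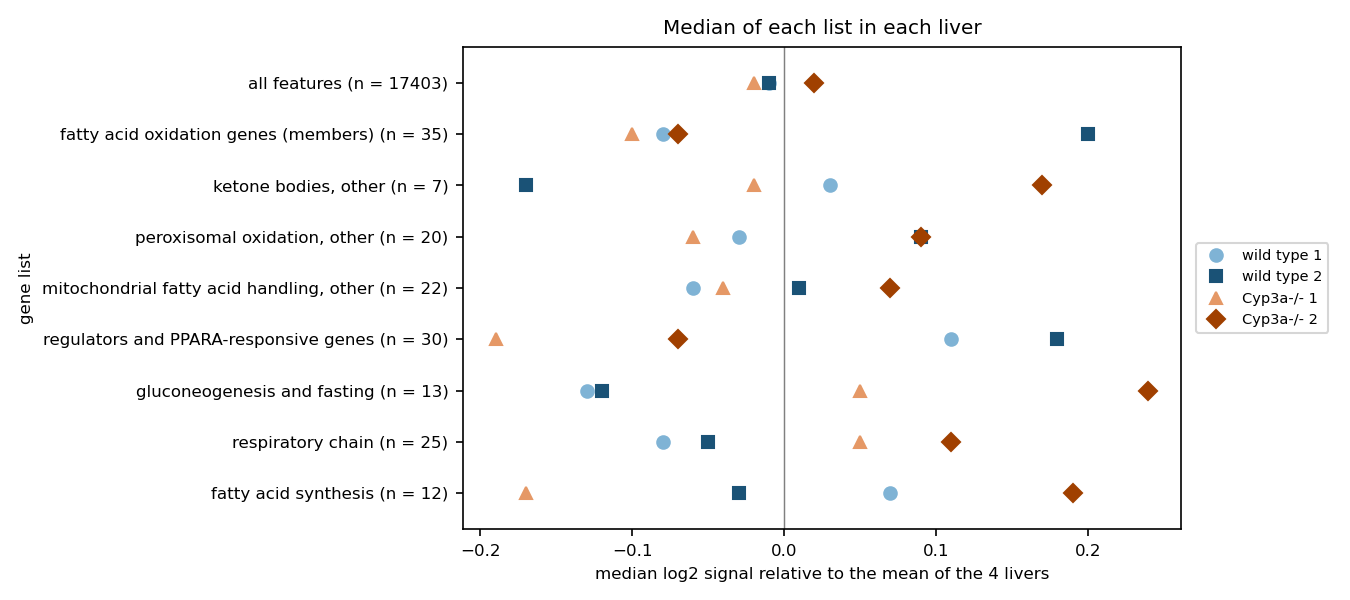
Median log2 signal of the genes of each list in each liver, relative to each gene's mean over the 4 livers (horizontal axis, log2; 1 point per liver; n is the number of measured genes or features). The fatty acid oxidation genes have wild type 2 at 0.20 and the other livers between -0.10 and -0.07, whereas the median of all features lies between -0.02 and 0.02 in each liver.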

How the data were processed

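Total RNA from each liver (2 wild type, 2 Cyp3a-/-) was labelled with Cy3 and put on its own one-colour Agilent mouse array, per the labels. The authors deposited scanner output holding spot intensity values; the file headers and the submitters' processing notes name Agilent Feature Extraction 11.5.1.1. The processed intensity is background-subtracted and not normalized between arrays. Flags for spots above background or deviating are other columns of the deposited files, with values of 0 or 1. A value table deposited by the authors holds log2 values, whose scale, centring and direction are not stated; its columns correlated at 1.00 with scaled scanner values centred on each probe's median, and had medians of 0.06 and -0.07 (wild type) and -0.02 and 0.02 (Cyp3a-/-). 0 per-sample columns were left unused.

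Control spots and 113 to 148 deviating spots per array were left out, log2 values of spots of one probe were averaged, and each array's 75th percentile was subtracted. Probes well above background in both livers of at least 1 genotype were kept (21505). RefSeq accessions named 28025 probes through a table of assembly GRCm38.p6 and left 11404 unnamed. The kept probe with the highest mean signal stood for a gene. The genotype term was tested by limma 3.58.1 under R 4.3.3 (lmFit, eBayes, 2-sided; 3.54 prior and 2 residual degrees of freedom), with Benjamini-Hochberg adjustment over 17403 features, on code tested on simulated data. Labels do not say whether replicate numbers mark an experiment. The p-values rest on the spread within genotype of these 4 livers, moderated by that over all features. The number of arrays limits the precision. Members and lists were chosen with earlier results of these data known. Each of the 12 members with the largest differences, and each with an unadjusted p under 0.05, is given by liver; from further lists the first gene and the 3 with the smallest p are named, except a few that are not reported here. The planned normexp correction used median spot signals in place of mean signals. Other backgrounds, scalings, filters, probe summaries, blocks, array weights and left-out livers were tried.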

Additional observations from a re-analysis of the deposited data

How the results depend on the processing

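No member passed limma's threshold in any setting (0 of 35 in each; the smallest adjusted p over settings was 0.159, without Cyp3a-/- 2). The median log2 fold change of the members stayed between -0.17 and -0.28 with all 4 livers, and ranged from -0.30 to -0.03 when 1 liver was left out; the lone liver of a genotype was then assumed to vary like the others. Counts were less stable. Over all features 48 were called, 659 with scaling to the array median (58.9% of them higher, beside 64.6%), 13 without a filter on dim probes (30.8% higher), 9 with probes above background on all 4 arrays, and 7 to 506 with 1 liver left out. Members at an unadjusted p under 0.05 numbered 2, against 4 with normexp and 4 with quantile normalization, 3 with scaling to the array median, 0 without a filter, 1 with the replicate block, 1 with array weights, 0 with scan as a random block, 3 with the crossed block, and 0 to 8 with 1 liver left out. Of all features, 10.0% had such a p, against 9.08% with normexp, 9.75% with quantile normalization and 10.6% with scaling to the array median. Without a filter the share was 7.14%, with the replicate block 9.46% and with array weights 10.0%. Scan as a random block gave 6.19% and the crossed block 11.7%. Counts with 1 liver left out rest on a lone liver of a genotype, so no share was set beside them. Members without overlap and lower numbered 11 (31.4%, beside 20.2% of all features), 20 with quantile normalization and 6 with scaling to the array median. The share of all features was not counted for those 2 scalings. With 1 liver left out the count was 11 to 29, but separation is easier there and these counts do not compare with the first. Without wild type 2 it was 11 (31.4%, beside 32.7% of all features), and without wild type 1 it was 29 (82.9%, beside 33.3%). The cause was not tested.

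Some members changed sign. With normexp, Cpt2 stood at 0.01 and Acadl at -0.01. Quantile normalization gave Acadl -0.02, Etfa -0.04 and Etfdh -0.07, and scaling to the array median gave Cpt2 0.02, Hadhb 0.03 and Hsd17b4 0.02. Without 1 liver the log2 fold change ranged from -2.11 to 0.53 for Acot3, -1.51 to 0.23 for Acot1, -1.16 to 0.66 for Crat, -0.81 to 0.23 for Pdk4, -0.63 to 0.44 for Acot4, -0.42 to 0.02 for Eci2, -0.31 to 0.14 for Acaa1a, -0.29 to 0.17 for Eci1, -0.29 to 0.19 for Hadh, -0.26 to 0.13 for Etfb, -0.24 to 0.05 for Decr1, -0.23 to 0.07 for Acadm, -0.21 to 0.18 for Cpt2, -0.15 to 0.27 for Etfdh, -0.09 to 0.13 for Acadl, -0.09 to 0.08 for Hsd17b4 and -0.08 to 0.07 for Hadhb. Without wild type 2 alone, 12 members changed sign. Other members did not reverse but moved by over 1.5 times: Ehhadh from -1.38 to 0.00, Acot2 from -1.29 to -0.14, Pex11a from -0.97 to -0.33, Acaa1b from -0.84 to -0.28, Slc25a20 from -0.82 to -0.11, Decr2 from -0.78 to -0.21, Crot from -0.60 to -0.06 and Cpt1a from -0.63 to -0.30, among others.

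The replicate numbers, as a replicate block, gave 58 calls over all features and 0 among members. Replicate 1 minus 2 correlated at -0.10 between genotypes over all features; pairing wild type 1 with Cyp3a-/- 2 and wild type 2 with Cyp3a-/- 1, chosen after seeing the data, gave 56 calls and 0 among members. Scan as a random block, also added after seeing the data with a correlation of 0.35 set from the spread within genotypes, gave 33 calls; the planned estimate by duplicateCorrelation was not run to a value, as it gave none for 4 arrays. Small log2 differences are limited by the number of arrays, and dim probes by their signal over background.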

Other observations

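Genes of 3 neighbouring pathways were measured in the same livers. Of 25 genes of the respiratory chain list, which includes the citrate synthase gene Cs, both Cyp3a-/- livers lay above both wild type livers for 15 and below for 0 (22.6% and 20.2% of all features). Their median log2 fold change was 0.16, and none passed limma's threshold (0 of 25, and 0 at an unadjusted p under 0.05). Wild type 2 was highest for 2 of the 25, beside 24.1% of all features. Atp5a1, a subunit of ATP synthase, stood at 6.39 and 6.27 in wild type and at 6.64 and 6.71 in Cyp3a-/- liver (0.35 ± 0.18, limma adjusted p = 0.584). Cox7a2, of cytochrome c oxidase, stood at 0.25 ± 0.17, Sdhb, of succinate dehydrogenase, at 0.27 ± 0.19 and Ndufs1, of complex I, at 0.21 ± 0.17.

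For gluconeogenesis and fasting, 0 of 13 genes passed limma's threshold, and the median was 0.25. At an unadjusted p under 0.05, 2 were higher and 0 lower (4.60% and 5.42% of all features). Both Cyp3a-/- livers lay above both wild type livers for 7 and below for 0 (22.6% and 20.2% of all features). Ppp1r3b, which targets phosphatase to glycogen, stood at 0.74 ± 0.20, the kinase gene Sik1 at 0.76 ± 0.23, Pck1, of gluconeogenesis, at 0.40 ± 0.23 and G6pc, which releases glucose, at 0.38 ± 0.20. Wild type 2 was highest for 1 of the 13, beside 24.1% of all features. For fatty acid synthesis, 0 of 12 passed, with a median of -0.02. At an unadjusted p under 0.05, 1 was higher and 2 lower (4.60% and 5.42% of all features). Thrsp, a lipogenic gene, had 4.24 and 3.42 in wild type and 4.83 and 6.28 in Cyp3a-/- liver (1.72 ± 0.53, limma adjusted p = 0.389), while the elongase gene Elovl5 stood at -0.91 ± 0.19, the desaturase gene Scd1 at -0.79 ± 0.21 and the fatty acid synthase gene Fasn at -0.13 ± 0.43. Wild type 2 was highest for 4 of these 12, beside 24.1% of all features.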
